A study of Mus musculus with 8 samples.

Results

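The transgene effect that remained under 4-phenylbutyrate (PBA) was measured as the difference between islets of PBA-treated hIAPP mice and islets of PBA-treated wild-type mice. The comparison takes the 4 arrays of those 2 groups out of 8 arrays in the study, 2 arrays per group, chosen by their labelled genotype and treatment and not by any measured value. The other 4 arrays, from untreated wild-type and untreated hIAPP mice, entered the fit to estimate the spread and served as the reference for what the transgene did without the drug. All mice were 20 weeks old at islet isolation, and treated mice had received PBA at 1 g/kg/day for 12 weeks from the age of 8 weeks. All 8 samples carry the strain label FVB/N-Tg(Ins2-IAPP)RFHSoel/J, the wild-type ones included, and this name places the human IAPP transgene under an Ins2 insulin gene promoter. The labels give neither sex nor transgene copy number, and they do not say whether an array holds 1 mouse or a pool of mice, so a p-value here covers the spread between arrays, which may be technical.

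Human islet amyloid polypeptide (hIAPP, or amylin) is a peptide hormone stored and secreted with insulin by beta cells. Unlike the mouse peptide, the human peptide aggregates into amyloid fibrils, and its aggregates are known to stress and kill beta cells and to activate islet macrophages. PBA is a chemical chaperone that eases protein folding in the endoplasmic reticulum, and it also inhibits histone deacetylases. The comparison addresses which expression differences between hIAPP and wild-type islets were still present when both had received the drug.

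Values are the authors' log2 RMA values, in which a difference of 1 is a 2-fold difference, rounded to 1 decimal. The non-specific control probes centred on 3.1 and had a 95th percentile of 4.68, and a gene is called near background below the latter. The labelled tissue was borne out by its markers on all 8 arrays. Ins2 was at 14.0 to 14.1, Gcg at 12.9 to 13.1, Sst at 12.5 to 13 and Ppy at 13.3 to 13.6. The transgene's own transcript was not analysed here. The arrays differed in ways that the labels do not explain. PBA-treated wild type 1 had low spiked-in hybridisation controls, with a median of 6.95 where the other 7 arrays had 9.8 to 10.2. The median level of 30 acinar genes, which mark the exocrine tissue around islets, was 11.45 and 10.45 in PBA-treated wild type and 7.95 and 9.65 in PBA-treated hIAPP. Acinar RNA was thus lowest on both PBA-treated hIAPP arrays, and its range over the untreated arrays was 10.4 to 12.15. Fewer cells of a type and less RNA per cell cannot be told apart in these bulk samples.

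Under PBA, 72 of 17075 genes differed between hIAPP and wild-type islets past an adjusted p of 0.05 (limma, Benjamini-Hochberg), which is 0.422% of the genes tested. Of these, 55 were higher in hIAPP islets (0.322%) and 17 lower (0.0996%). At least a 2-fold difference was seen for 46 of the higher and 9 of the lower genes. In untreated islets the same contrast had 1873 genes past the threshold (11%), 1328 higher and 545 lower, a split that turned to 1049 higher and 2719 lower when each array was centred on its median. The 2 contrasts share no array, but they share each gene's spread as estimated from all 8 arrays, so their calls are not independent. The count of 72 rests on all 8 arrays, since leaving out any 1 of them left 5 to 13 genes. Of the 72 genes, 61 also passed in untreated islets, which is 84.7% of the 72 and 3.26% of the 1873. The direction was the same for 58 of the 61 and opposite for Iigp1, Ckap2 and Erich6. The arrays of the 2 PBA-treated groups did not overlap for any of the 72 genes, as was also true of 15.6% of all genes in the higher direction and 14.8% in the lower. At an unadjusted p below 0.05 there were 1074 higher genes (6.29%) and 996 lower genes (5.83%).

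The genes that the transgene had changed most without the drug mostly kept their direction under PBA, at a smaller size. They were picked by their untreated difference, which favours large values there. How much of the smaller size under PBA comes from this choice was not tested. The 1328 genes higher in untreated hIAPP islets had a median difference of 1.05 there and of 0.20 under PBA, where 71.2% of them were still above 0 and 23.3% were below. The 545 lower genes went from a median of -0.60 to -0.15, and 68.6% stayed below 0. Among the 733 genes raised at least 2-fold without PBA, the median went from 1.45 to 0.35. Over all genes tested, 44.5% were above and 45.2% below 0 under PBA. Pearson's correlation of the 2 contrasts across the 17075 genes was 0.36, a description over genes that are not independent replicates.

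**Figure D1:**
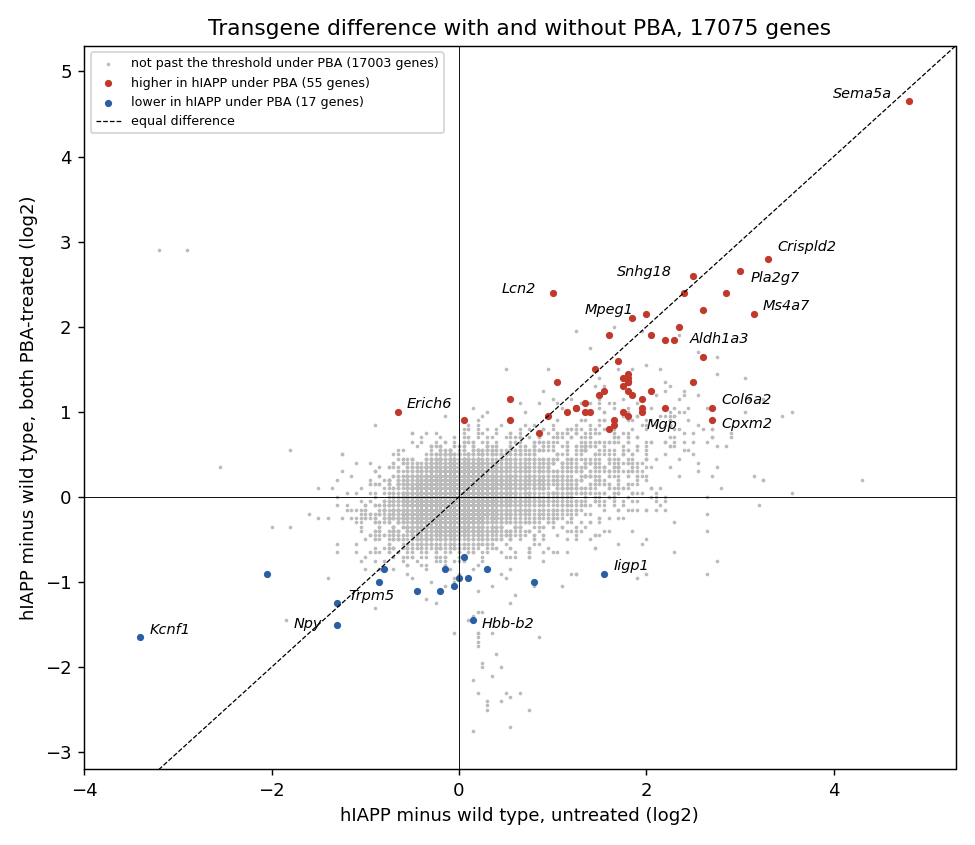
Each point is 1 of 17075 genes, with the hIAPP minus wild-type difference in untreated islets on the x axis and in PBA-treated islets on the y axis, both in log2 units. The 55 genes past the threshold higher under PBA (red) lie mostly near or below the dashed line of equal difference, Sema5a stands apart at 4.80 and 4.65, and most of the 17 lower genes (blue) lie near 0 on the x axis.

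The largest difference under PBA belonged to Sema5a, and the gene that starts beside it, Snhg18, rose with it. Sema5a encodes semaphorin 5A, a transmembrane guidance protein of the semaphorin family, and Snhg18 is a long non-coding RNA that hosts a small nucleolar RNA. Sema5a was at 4.9 on both PBA-treated wild-type arrays and at 9.4 and 9.7 on the PBA-treated hIAPP arrays, a 25.1-fold difference (log2 4.65, SE 0.12, limma adjusted p = 1.7e-05). It was at 5.0 on both untreated wild-type arrays and at 9.8 on both untreated hIAPP arrays, so all 4 hIAPP arrays lay within 0.4 of each other and far above all 4 wild-type arrays. Snhg18 was at 7.4 on both PBA-treated wild-type arrays and at 10 on both PBA-treated hIAPP arrays (2.6, SE 0.10, limma adjusted p = 1.3e-04). Its untreated difference was 2.50. For both genes the test of the difference between the contrasts was far from its threshold, at -0.15 with adjusted p = 0.7046 for Sema5a and 0.10 with adjusted p = 0.7650 for Snhg18.

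On chromosome 15 of the mouse assembly GRCm38.p6, Sema5a and Snhg18 are transcribed away from each other from starts that are 150 bases apart. Of 529 pairs of tested genes with such divergent starts, this was the only pair in which both genes passed under PBA. The region of 250 bases at chr15:32244563-32244812, plus strand, is shown because both genes that start there passed in all 8 fits that left out 1 array. Capitals mark the bases between the RefSeq starts, and lower case marks the first 100 bases on the Snhg18 side.

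Sema5a and Snhg18 shared region: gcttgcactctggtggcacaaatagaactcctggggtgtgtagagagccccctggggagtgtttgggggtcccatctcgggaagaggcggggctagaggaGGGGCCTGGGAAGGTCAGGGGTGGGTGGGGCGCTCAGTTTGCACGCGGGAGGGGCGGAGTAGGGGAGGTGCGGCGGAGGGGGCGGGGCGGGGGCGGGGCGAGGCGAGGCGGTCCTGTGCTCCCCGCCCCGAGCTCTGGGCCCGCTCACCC

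The stretch in capitals is 79.3% G and C. It holds the letters GGGCGG, the core of the GC box, 4 times on the plus strand and 1 time on the minus strand, matches that may overlap each other. The same letters, on either strand, are in 35.4% of the 27025 genes' windows of 250 bases before the start and in 49.0% of those of the 49 called genes that have one, all from RefSeq. The 27025 include genes that were not tested, as only 13617 tested genes have a window, so these shares are of unlike sets. A match is not evidence of binding. Around the pair, differences stayed small. Among the 10 tested genes nearest to Sema5a, 5 on either side, only Snhg18 passed, and the other 9 ranged from -0.50 to 0.20. The values given for Sema5a are those of 1 of its 4 probe sets (4.65). Another set gave 5.50, with its wild-type arrays under PBA near background, at 4.2 and 4.1. For the third, only the hIAPP arrays were above background, at 5.6 and 5.4 under PBA (2.35, limma adjusted p = 0.0014 over all probe sets), and the fourth was near background on all 8 arrays (0.30). No other member of the list of 31 measured semaphorins, plexins and neuropilins passed under PBA, and the list's median difference was 0.10. Sema4a, another semaphorin, was at 6.5 and 6.3 in PBA-treated wild type and 6.9 and 6.7 in PBA-treated hIAPP (0.40, adjusted p = 0.2882).

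Markers of macrophages and other myeloid cells made up the largest group of genes that stayed higher, though not every list of such genes kept a difference. Of 31 measured pan-macrophage and myeloid markers, 9 rose under PBA (29.0%, against 0.322% of all genes) and none fell, with a median of 1.00 against 0.00 over all genes. Without PBA, 24 of the 31 had risen, with a median of 1.5. Lyz2, the macrophage lysozyme, was at 8.5 and 8.2 in PBA-treated wild type and at 10.8 and 10.7 in PBA-treated hIAPP (2.4, SE 0.15, limma adjusted p = 0.0017). Cd68, a lysosomal glycoprotein of macrophages, was at 5.3 and 5.2 against 7.5 and 7.4 (2.20, SE 0.15, limma adjusted p = 0.0022). Mpeg1, which encodes a pore-forming protein of phagocytes, was at 7.2 and 7.0 against 9.2 and 9.3 (2.15, SE 0.11, limma adjusted p = 7.7e-04). For these 3 genes the groups were separated by at least 2.0, while partner arrays differed by 0.3 or less. Ms4a7 (2.15), the signalling adaptor Tyrobp (1.85), the NADPH oxidase subunit Cybb (1.5), Aif1 (1.35), the F4/80 antigen gene Adgre1 (1.30) and the Fc receptor gamma chain Fcer1g (1.00) were the other 6.

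The 22 list members that did not pass gave a mostly positive picture as well, without passing the test. In all, 30 of the 31 were above 0, only Ccr2, the monocyte chemokine receptor, being below (-0.05), and the arrays of 28 did not overlap, against 15.6% of all genes in that direction. Ptprc, the pan-leukocyte antigen CD45, was at 6.7 and 6.0 against 7.8 and 7.7 (1.40, adjusted p = 0.1236), and Csf1r, the receptor for macrophage growth factor, at 5.9 and 5.8 against 6.9 and 6.1 (0.65, adjusted p = 0.4347). Clec7a, the beta-glucan receptor dectin-1, was the member with a tested loss, at 0.70 under PBA against 2.90 without it (difference -2.20, limma adjusted p = 0.0250). The list's median was 0.86 with the acinar level as a covariate and 0.90 without replicate 1 of both PBA-treated groups.

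**Figure D2:**
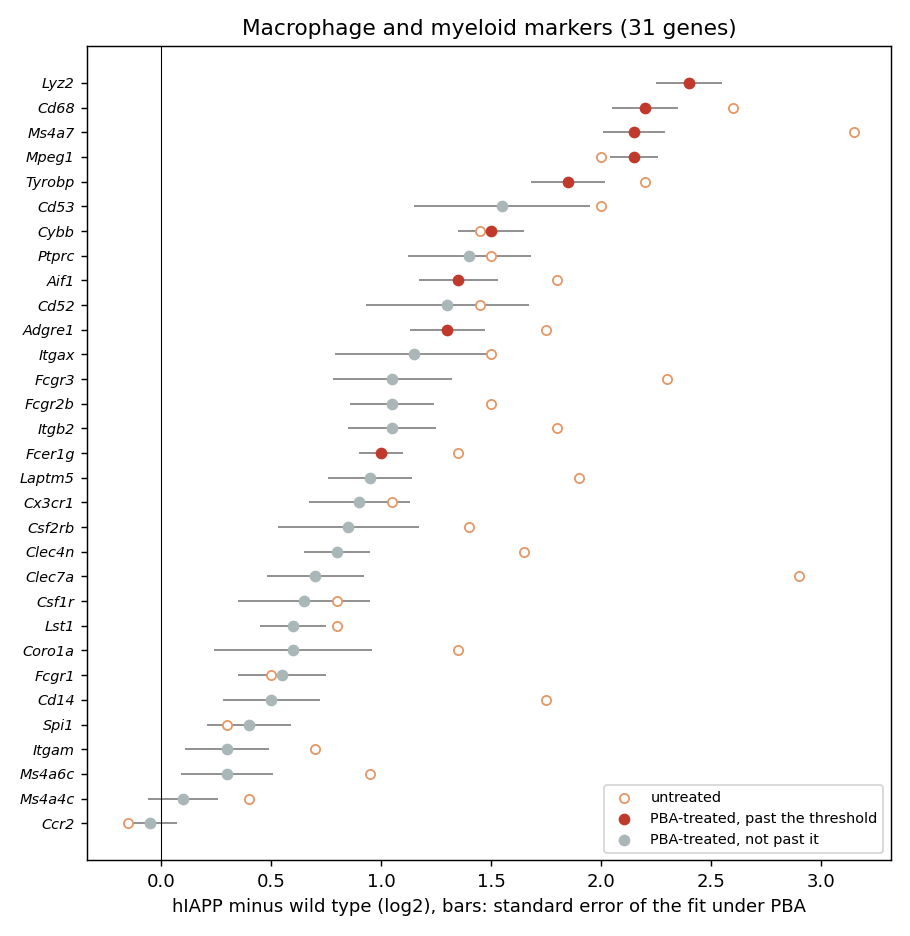
The 31 macrophage and myeloid markers are ordered by their hIAPP minus wild-type difference under PBA (filled points, with the standard error of the fit as bars), beside the same difference in untreated islets (open points), in log2 units. The 9 genes past the threshold under PBA are red, from Lyz2 at 2.4 to Fcer1g at 1.00, and Clec7a shows the widest gap between the 2 conditions.

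Another 8 called genes are known from myeloid or other blood cells without being on that list. Pla2g7, the secreted platelet-activating factor acetylhydrolase, was at 4.7 and 5.0 in PBA-treated wild type and at 7.5 on both PBA-treated hIAPP arrays (2.65, SE 0.13, limma adjusted p = 6.3e-04). Acp5, the tartrate-resistant acid phosphatase of osteoclasts and macrophages, was at 4.8 and 5.0 against 7.2 and 7.4 (2.4, SE 0.21, limma adjusted p = 0.0089). Ms4a6d (1.65), the actin-bundling plastin Lcp1 (1.45), the adaptors Pik3ap1 (1.40) and Blnk (0.80), the leukocyte actin regulator Nckap1l (1.25) and the signalling regulator Rgs1 (1.10) were the other 6. Pik3ap1 and Blnk lie within 5 tested genes of each other. Of 13 measured B lymphocyte and plasma cell genes none passed under PBA, 11 were above 0 and 2 below, and the median was 0.30. Taking the 9 list members above, the 8 genes of this paragraph and 5 described next, 22 called genes form a group. It is known from myeloid or other blood cells and was assembled after the values were seen. In every one of the 22, the level in hIAPP islets was lower with PBA than without it, and so was the level in wild-type islets. Among all 55 higher genes this held for 48 in hIAPP islets and for 46 in wild-type islets, and the share over all genes was not counted. The group's median difference was 1.48 under PBA and 1.80 without it, and none of the 22 passed the test of the difference between contrasts. Since the 22 were picked for passing under PBA, the choice favours a retained difference. The list of 31 markers, not picked in this way, went from a median of 1.5 without PBA to 1.00 with it.

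Lipid handling, lysosome and complement genes gave the remaining members of that group. Of 15 measured genes of lipid-handling macrophages, 2 rose under PBA and none fell, with a median of 0.30, against 13 that had risen without PBA and a median of 1.70. The 2 were Apoe and Lgals3. For 5 of the 15 the test of the difference between contrasts passed in the lower direction, against 1.69% of all genes. Apoe, the lipid carrier also found in amyloid deposits, was at 9.8 and 9.7 in PBA-treated wild type and at 11.4 and 11.3 in PBA-treated hIAPP (1.60, SE 0.13, limma adjusted p = 0.0053). Lgals3, which encodes galectin-3, was at 6.5 and 6.3 against 8.2 and 8.3 (1.85). The lipid receptor Trem2 was at 4.6 and 5.1 against 7.1 and 6.4 and missed the threshold (1.90, adjusted p = 0.0793). Gpnmb, another gene of these cells, was at 4.3 and 5.0 against 5.6 on both hIAPP arrays (0.95, adjusted p = 0.3252), where the untreated difference had been 3.45 (gap -2.50, limma adjusted p = 0.0498). With the acinar covariate the list's median under PBA was 0.03. Apoe was the only 1 of 21 amyloid-associated or amyloid-degrading genes to pass, and the insulin-degrading enzyme gene Ide was at 8.6 and 8.4 against 8.7 and 8.8 (0.25, adjusted p = 0.4551). Of 26 lysosomal hydrolases and cathepsins, 1 rose, Ctss (1.05), against 0.322% of all genes, and the median was 0.28. At an unadjusted p below 0.05, 11 of the 26 were higher and 1 lower, against 6.29% and 5.83% of all genes. Ctss was also the only 1 of 12 MHC class II presentation genes to pass under PBA. That list had a median of 0.10, with 7 genes above 0 and 5 below, Cd74 (-0.45) and H2-Ab1 (-0.40) among the latter. None of 17 alternatively activated macrophage genes passed, and their median was 0.05.

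Complement genes stayed higher in part. Of 18 measured complement components, 4 rose under PBA and none fell, with a median of 0.43, against 11 and 0.90 without PBA. C1qb was at 7.1 and 6.9 in PBA-treated wild type and at 8.2 and 8.1 in PBA-treated hIAPP (1.15, limma adjusted p = 0.0347), and C1qc at 6.5 and 6.7 against 8.2 and 7.8 (1.40, limma adjusted p = 0.0362). These genes encode the B and C chains of C1q, the recognition protein of the classical pathway, and lie within 5 tested genes of each other. The probe set of C1qa, the gene of the third chain, was at 9.8 on both wild-type arrays and at 9.9 and 9.7 on the hIAPP arrays (0.00). C4b (1.20), which encodes the pathway's next component, and Serping1 (0.95), its inhibitor, were the other 2 that rose.

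Plasma and acute-phase proteins formed a smaller group. Of 23 acute-phase, antiprotease and S100 genes, Lcn2, Serpina3n and S100a6 rose and none fell, with a median of 0.15. Lcn2 encodes lipocalin-2, which binds bacterial iron carriers, and its transgene difference was larger under PBA than without it. It was at 4.9 and 4.8 in untreated wild type, 3.4 and 3.9 in PBA-treated wild type, 5.9 and 5.8 in untreated hIAPP, and 6.0 and 6.1 in PBA-treated hIAPP. The hIAPP arrays thus stayed level while the PBA-treated wild-type arrays were the lowest and near background. The difference was 2.4 under PBA (limma adjusted p = 0.0022) and 1.00 without it, and the gap of 1.40 passed its own test (adjusted p = 0.0367). Serpina3n, a serine protease inhibitor of the acute phase, was at 5.1 and 4.6 against 6.6 and 6.9 under PBA (1.90, SE 0.18). S100a6 (1.05) and Cp (1.35), which encodes the copper carrier ceruloplasmin, passed as well.

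Extracellular matrix genes had mostly smaller differences under PBA than without it. Of 42 proteoglycan and matricellular genes, 26 had risen without PBA and 3 rose with it, and the median went from 1.73 to 0.25. Of 20 stellate cell, pericyte and smooth muscle markers, 14 had risen without PBA and 1 with it (medians 1.62 and 0.38). For 32 collagen chains the counts were 15 and 1 (0.42 and 0.05). Over all genes, 0.322% rose past the threshold under PBA. At an unadjusted p below 0.05 under PBA, 16 matrix genes, 11 stellate markers and 10 collagens were higher and 0 lower. The shares of all genes at that level were 6.29% higher and 5.83% lower. The test of the difference between contrasts passed in the lower direction for 10 matrix genes, 4 stellate markers and 6 collagens, against 1.69% of all genes.

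Crispld2, a secreted protein of mesenchymal cells, had the largest difference of this group under PBA. It was at 4.2 and 4.1 in PBA-treated wild type, near background, and at 6.7 and 7.2 in PBA-treated hIAPP (2.80, SE 0.18, limma adjusted p = 0.0019), against 3.30 without PBA, and its second probe set above background gave 1.45 under PBA. Mgp, the matrix Gla protein that inhibits calcification, showed the more common pattern. It was at 10.1 and 10.3 in wild type both without and with PBA, at 12.5 and 12.3 in untreated hIAPP, and at 11.3 and 11.2 in PBA-treated hIAPP. The treated hIAPP arrays lay between the wild-type and the untreated hIAPP arrays, with a difference of 1.05 under PBA and 2.20 without (gap -1.15, limma adjusted p = 0.0316). Col6a2, a chain of collagen VI, was at 7.3 and 7.1 against 8.1 and 8.4 under PBA (1.05, adjusted p just under the threshold of 0.05) and 2.70 without (gap -1.65, adjusted p = 0.0214). Cpxm2 (0.90), a carboxypeptidase-like protein, had the same order of groups, with a gap of -1.80. Tgfbi (1.90), an adhesion protein induced by TGF-beta, kept nearly its untreated difference of 2.05. Smoc1 (1.25) and Ecm1 (1.00), both secreted matrix proteins, the proteoglycan Gpc6 (1.25), the collagen-modifying proteins Plod2 (1.05) and Serpinh1 (0.90), Olfml3 (0.95) and Csrp2 (1.20) were the others of this group of 12, whose median was 1.05 under PBA and 1.95 without. For Plod2 and Serpinh1 a second probe set above background gave only 0.30 and 0.25. Of the 20 called genes with at least 2 probe sets above background on average, 13 had probe sets whose differences under PBA were more than 1.5 times apart, and none had sets of opposite sign. Lcp1 ranged from 0.65 to 1.45, Cybb from 0.95 to 1.5, Nckap1l from 0.70 to 1.25, Tenm4 from 0.55 to 1.00, Ttyh1 from 0.45 to 0.90, Dpp10 from -1.10 to -0.55, Nptx1 from -1.10 to -0.70, Shisa2 from -0.85 to -0.55 and Stard4 from -0.90 to -0.45.

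Among genes of endocrine cells and metabolism, Aldh1a3 stayed high in hIAPP islets. It encodes a retinaldehyde dehydrogenase that is scarce in mature beta cells and is used as a marker of their dedifferentiation. It was at 7.4 on both untreated wild-type arrays and at 7.6 and 7.5 with PBA, and at 9.9 and 9.6 in untreated and 9.6 and 9.5 in PBA-treated hIAPP. The difference was 2.0 under PBA (SE 0.12, limma adjusted p = 0.0017) and 2.35 without it, and the hIAPP arrays with and without PBA met at 9.6. Its 3 probe sets above background gave 1.65 to 2.05. It was the only 1 of 21 disallowed and immaturity genes of beta cells to rise past the threshold, where 11 had risen without PBA. The list's median was 0.20 under PBA. At an unadjusted p below 0.05, 7 of the 21 were higher and 1 lower, against 6.29% and 5.83% of all genes. Ldha, the lactate dehydrogenase gene kept low in beta cells, was at 6.7 and 7.0 against 7.6 and 7.3 (0.60, adjusted p = 0.2125).

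Aass, which starts the breakdown of lysine, was at 6.2 and 6.1 in PBA-treated wild type and at 8.4 and 8.1 in PBA-treated hIAPP (2.10, SE 0.19, limma adjusted p = 0.0089), against 1.85 without PBA. Vgf, a neuroendocrine peptide precursor, was at 7.3 and 7.1 against 8.2 on both hIAPP arrays (1.00), and it had differed by 1.95 without PBA. Ttyh1, a membrane protein of the tweety family, was at 8.0 and 7.9 in untreated wild type, at 7.4 on both PBA-treated wild-type arrays, at 8.0 on both arrays of untreated hIAPP, and at 8.4 and 8.2 in PBA-treated hIAPP. Its transgene difference was 0.90 under PBA and 0.05 without, a gap of 0.85 that passed (limma adjusted p = 0.0426). Erich6 was at 6.5 and 6.3 in PBA-treated wild type against 7.4 on both PBA-treated hIAPP arrays (1.00), where the untreated difference was -0.65 (gap 1.65, adjusted p = 0.0077). Gucy2c (1.15), the guanylin receptor, did not pass without PBA (0.55, adjusted p = 0.0512). The remaining 7 higher genes were the scavenger receptor Scara5 (1.35), the small GTPase Rasd2 (1.35), Tenm4 (1.00), the sterol hydroxylase Cyp27a1 (1.00), the kinase Mapkapk3 (0.90), the transcription factor Bach2 (0.85) and the transporter Abcc3 (0.75).

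**Figure D3:**
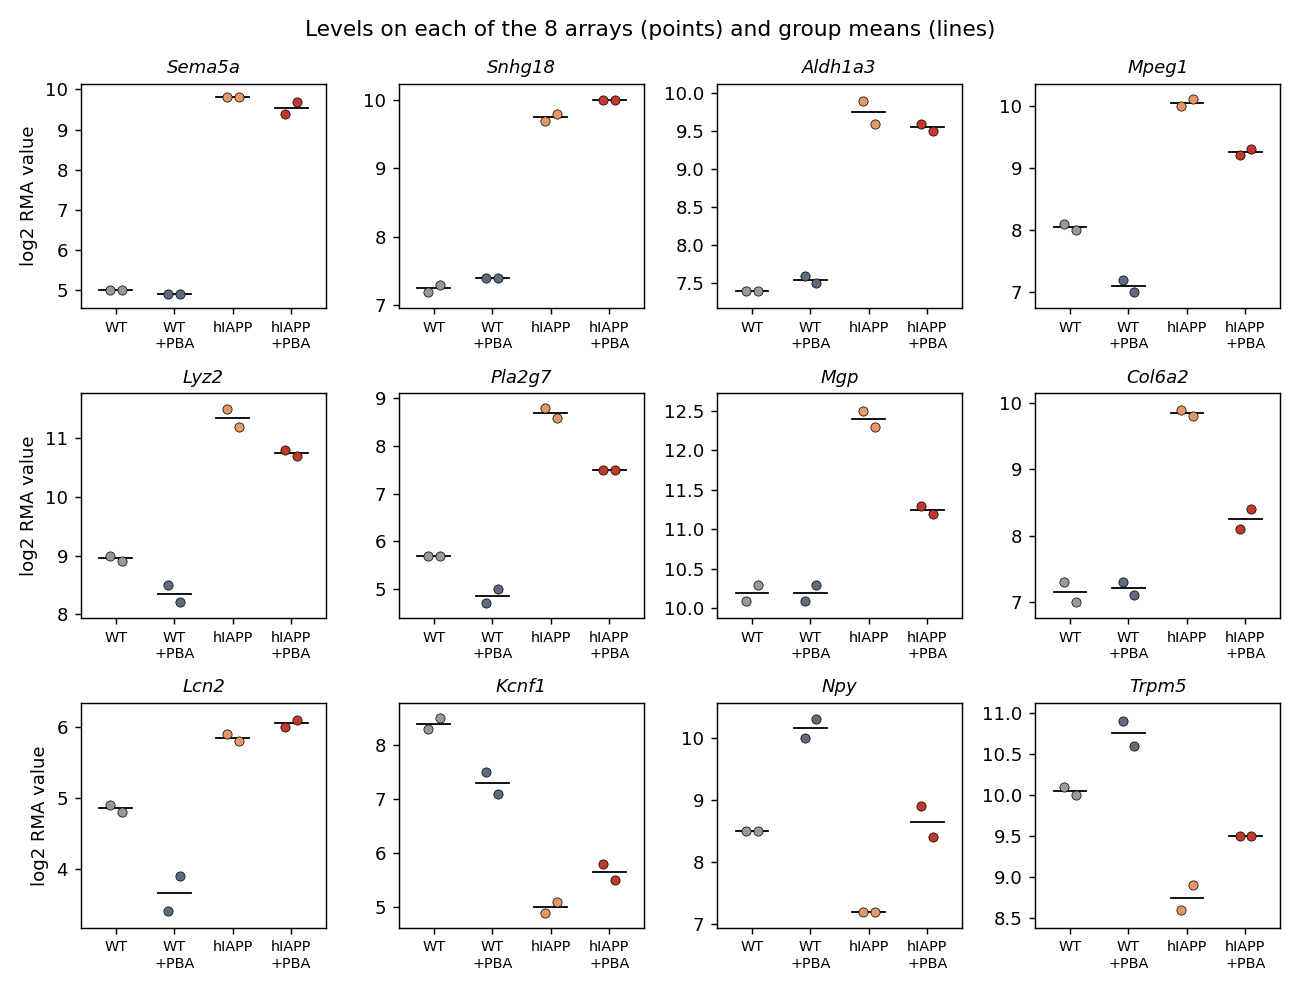
Log2 RMA values of 12 genes past the threshold under PBA, 1 panel per gene with its own y range, with 1 point per array and a line at the mean of the 2 arrays of a group. Sema5a, Snhg18 and Aldh1a3 separate by genotype with or without PBA, Mgp and Col6a2 are intermediate in PBA-treated hIAPP islets, and for Npy and Trpm5 both PBA-treated groups lie above their untreated counterparts.

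Of the 17 lower genes, 6 were also lower in untreated hIAPP islets, while 9 did not pass there and Iigp1 and Ckap2 had been higher. In 15 of the 17 the mean of PBA-treated wild type lay above that of untreated wild type. Picking genes that are lower in hIAPP under PBA favours high PBA-treated wild-type values, and the share over all genes was not counted. Kcnf1, a modulatory subunit of voltage-gated potassium channels, had the largest fall. It was at 7.5 and 7.1 in PBA-treated wild type and at 5.8 and 5.5 in PBA-treated hIAPP (fell by 1.65, 3.14-fold, SE 0.17, limma adjusted p = 0.0197). It had been at 8.3 and 8.5 against 4.9 and 5.1 without PBA, so the difference went from -3.40 to -1.65 (gap 1.75, adjusted p = 0.0247), with both groups closer to each other under the drug. It was the only 1 of 19 voltage-gated potassium channel genes to pass under PBA.

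Npy and Trpm5 differed by about as much with as without the drug. Npy, the neuropeptide Y gene, was at 8.5 on both untreated wild-type arrays and at 10 and 10.3 with PBA, and in hIAPP islets at 7.2 on both arrays without PBA and at 8.9 and 8.4 with it (-1.5, SE 0.18, limma adjusted p = 0.0259). Both genotypes were higher with PBA, and the difference without it was -1.30. Trpm5, a calcium-activated cation channel of beta cells, was at 10.9 and 10.6 against 9.5 on both hIAPP arrays under PBA (-1.25, SE 0.14, limma adjusted p = 0.0240), and it had differed by -1.30 without. Its 3 probe sets above background gave -1.5 to -1.25. It was the only 1 of 24 beta-cell identity and secretion genes to pass, and the list's median was -0.17 under PBA, where 6 had fallen without it. At an unadjusted p below 0.05, 5 of the 24 were lower and 0 higher under PBA, against 5.83% and 6.29% of all genes. Pdx1, the beta-cell transcription factor, was at 9.6 and 9.3 against 9.3 and 9.4 (-0.10, adjusted p = 0.7683), and the glucose transporter gene Slc2a2 at 12.1 and 12.4 against 12.0 and 12.1 (-0.20, adjusted p = 0.5770). Cabp7 (-0.85), a calcium-binding protein, Fam184b (-1.0) and Epb41l4a (-0.90) were the other 3 lower in both conditions.

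The 9 genes that fell under PBA and had not passed without it were Hbb-b2, Hba-a1, Nptx1, Dpp10, H3c15, Ttc27, Shisa2, Edil3 and Stard4. In 8 of the 9, both PBA-treated wild-type arrays were above both untreated wild-type arrays. The way these 9 were picked favours that order, and its share over all genes was not counted. Nptx1, a secreted neuronal pentraxin, was at 6.6 and 6.5 in untreated and 7.9 and 7.6 in PBA-treated wild type, and at 6.3 and 6.4 in untreated and 6.7 and 6.6 in PBA-treated hIAPP (-1.10, limma adjusted p = 0.0240). Dpp10, a potassium channel auxiliary protein, was at 6.6 on both untreated and 7.9 on both PBA-treated wild-type arrays, and at 6.6 and 7.0 in PBA-treated hIAPP (-1.10, limma adjusted p = 0.0470). Stard4, a sterol carrier, was at 7.7 and 7.6 in PBA-treated wild type and between 6.9 and 7.0 on all 6 other arrays (-0.70, adjusted p = 0.0453). These 3 genes were highest in PBA-treated wild type, with the PBA-treated hIAPP arrays at or near untreated wild type. H3c15 (-0.95) is a histone gene with near-identical copies whose signals may be shared, Shisa2 (-0.85) and Ttc27 (-0.95) were well above background, and Edil3 (-0.85) was near it.

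The globin genes read out red blood cells. Hbb-b2 was at 12.6 and 13 in PBA-treated wild type and at 11.2 and 11.5 in PBA-treated hIAPP (-1.45, limma adjusted p = 0.0347), and at 12.3 to 12.7 on the 4 untreated arrays. Hba-a1 was at 12.5 and 12.8 against 11.5 and 11.7 (-1.05, limma adjusted p = 0.0470), and its 3 probe sets ranged from -2.30 to -1.05. Both genes have near-identical copies, so probes may read more than 1. Alas2, the haem synthesis enzyme of red cell precursors, was at 6.0 and 6.4 against 4.7 and 4.5 and did not pass (-1.60, adjusted p = 0.0706).

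Iigp1 and Ckap2 were higher in untreated hIAPP islets and lower in treated ones. Iigp1, an interferon-inducible GTPase, was at 6.3 and 6.2 in untreated wild type, 7.8 on both untreated hIAPP arrays, 6.6 on both PBA-treated wild-type arrays and 5.7 on both PBA-treated hIAPP arrays. Its transgene difference went from 1.55 to -0.90 (gap -2.45, limma adjusted p = 0.0035). Rsad2, the interferon-induced viperin gene, had the same order, with 7.2 and 7.1 against 6.4 and 6.1 under PBA (-0.90, adjusted p = 0.0537) and 1.25 without (gap -2.15, adjusted p = 0.0077). Of 27 interferon-stimulated genes, Iigp1 was the only 1 to pass under PBA, against 6 higher and 1 lower without it. At an unadjusted p below 0.05 under PBA, 3 of the 27 were higher and 3 lower, and the list's median was -0.15. Irf7, another member, leaned the other way, at 4.3 and 4.8 against 5.4 and 5.6 (0.95, limma adjusted p = 0.1415), with its wild-type mean near background. Ckap2, a mitotic spindle protein, was at 5.5 and 5.2 in PBA-treated wild type, above the 4.3 and 4.4 of PBA-treated hIAPP (-1.0), after a difference of 0.80 without PBA (gap -1.80, adjusted p = 0.0104). Its lower group was near background.

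The difference between the 2 transgene contrasts passed for 335 genes (1.96%), 289 with a lower value under PBA and 46 with a higher one, or 181 and 84 with each array centred on its median. Leaving out any 1 of the 8 arrays left 0 to 3 genes past this test, so each gap given as passing does so with all 8 arrays. Of the 289, 279 were genes that had been higher in untreated hIAPP islets. Mmp12, the macrophage metalloelastase, was at 9.1 and 8.9 in untreated hIAPP and at 4.7 on both PBA-treated hIAPP arrays, next to 4.3 and 4.7 in PBA-treated wild type, so its difference went from 3.25 to 0.20 (gap -3.05, limma adjusted p = 0.0077). Smoc2, a matricellular protein, Cytl1 and the carboxylesterase Ces1d had untreated differences of 3.55, 2.65 and 2.75 and gaps of -3.50, -3.55 and -3.50. Outside untreated hIAPP islets these 3 genes were at or near background, at 4.8 or below on every array, so their differences under PBA are between dim signals. For Ces1d the 2 PBA-treated hIAPP arrays were also far apart, at 3.1 and 4.5. Arrdc4 and Txnip, glucose-responsive arrestin-domain genes, went from 3.25 to 0.20 (gap -3.05) and from 1.80 to 0.25 (gap -1.55). Arrdc4 was at 6.0 and 5.9 in PBA-treated wild type against 6.0 and 6.3 in PBA-treated hIAPP, where the untreated values had been 4.9 and 4.7 against 8.1 and 8.0. The 2 PBA-treated groups overlapped while the untreated ones were far apart. Cck, a gut and islet peptide, fell from 2.80 to 0.10 (gap -2.70), with all arrays but the untreated hIAPP ones near background.

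Of 41 cell cycle genes, 17 had risen without PBA and none passed with it (8 lower and 1 higher at an unadjusted p below 0.05, against 5.83% and 6.29% of all genes), and 8 passed the test of the gap in the lower direction. Ube2c, a mitotic ubiquitin-conjugating enzyme, was at 3.7 and 3.4 in untreated wild type, 5.4 and 5.7 in PBA-treated wild type, 5.4 and 5.7 in untreated hIAPP and 4.5 and 4.8 in PBA-treated hIAPP. Its transgene difference was 2.0 without and -0.90 with PBA (gap -2.90, adjusted p = 0.0077). Top2a, the replication topoisomerase (gap -2.95), and the mitotic kinase gene Pbk (-2.85) had the same order of groups. Of 30 endothelial markers, 17 had risen and 1 had fallen without PBA and none passed with it (2 higher and 4 lower at an unadjusted p below 0.05), with 7 gaps passing in the lower direction. In the other direction, 42 of the 46 genes with a gap above 0 had been lower in untreated hIAPP islets. The crystallin gene Crybb3 went from -2.55 to 0.35 (gap 2.90), Car15, a carbonic anhydrase, from -1.80 to 0.55 (2.35) and Pde10a, a phosphodiesterase, from -1.25 to 0.50 (1.75). Crybb3 was at 7.3 and 7.5 in untreated wild type and at 4.5 to 5.0 on the other 6 arrays, so the closing of its difference came with a lower wild-type level.

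Several groups had no gene past the threshold under PBA. Among 32 endoplasmic reticulum chaperone, degradation and sensor genes none passed, 3 were higher and 1 lower at an unadjusted p below 0.05, near the 6.29% and 5.83% of all genes, and the median was 0.10. Hspa5, the main chaperone of that compartment, was at 11.2 and 11.5 against 11.8 and 11.7 (0.40, adjusted p = 0.2845). Ddit3, the stress transcription factor CHOP, was at 8.4 and 8.6 against 8.8 on both hIAPP arrays (0.30, adjusted p = 0.3740), and Atf4 and Xbp1 were at 0.05 and -0.20. None passed among 24 genes of the ATF4 and CHOP response, 38 chemokines and receptors, 26 metalloproteinases and inhibitors, 35 proteasome subunits, 37 respiratory chain genes, 20 glycolysis enzymes, 25 autophagy genes, 14 histone deacetylases or 24 apoptosis genes. At an unadjusted p below 0.05, 6.29% of all genes were higher and 5.83% lower. The higher and lower counts were 5 and 1 for glycolysis enzymes and 4 and 3 for ATF4 and CHOP genes. They were 4 and 0 for metalloproteinases and inhibitors, 5 and 1 for chemokines and receptors, and 3 and 2 for apoptosis genes. For respiratory chain genes they were 3 and 1, for proteasome subunits 3 and 0, for histone deacetylases 0 and 1, and for autophagy genes 0 and 0. Glycolysis enzymes, with 5 of 20 higher, lay furthest above the 6.29%. Il1b, the interleukin-1 beta gene, was at 5.3 and 5.0 against 6.3 and 6.0 and did not pass (1.00, adjusted p = 0.0700).

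Acinar genes and sterol synthesis genes leaned lower as lists without a gene past the threshold. Of 30 acinar genes, 28 were below 0 and the arrays of 23 did not overlap (14.8% of all genes), with a median of -1.90, and 17 were lower at an unadjusted p below 0.05 (5.83%). The trypsinogen Prss2 was at 12.7 and 11.8 in PBA-treated wild type and 9.2 and 11 in PBA-treated hIAPP (-2.15, adjusted p = 0.2845). The 2 hIAPP arrays differed by 1.8 for this gene. Without replicate 1 of both PBA-treated groups the list's median was -0.50. Of 26 sterol and fatty acid synthesis genes, 13 were lower and 1 higher at an unadjusted p below 0.05 (against 5.83% and 6.29% of all genes), with a median of -0.30. Idi1, which makes an isoprenoid precursor, was at 7.8 and 8.0 in untreated and 8.9 and 8.8 in PBA-treated wild type, and at 8.2 on both untreated arrays and 8.4 and 8.1 with PBA in hIAPP (-0.60, adjusted p = 0.1550). As for Stard4, the PBA-treated wild-type arrays were the highest. Reg2 and Reg3b, secreted proteins induced by islet injury, spread widely between partner arrays. Reg2 was at 5.9 and 4.9 against 7.3 and 9.3 under PBA (2.90, SE 0.89, adjusted p = 0.2838), after 10.8 and 9.6 against 5.9 and 8.1 without it. With the acinar level as a covariate its difference was 5.32 and passed (adjusted p = 0.0298), while that of Reg3b was 5.39 and did not (adjusted p = 0.4254). In the 16 other alternatives that kept 1 probe set per gene the adjusted p of Reg2 was from 0.2046 to 0.5605.

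**Figure D4:**
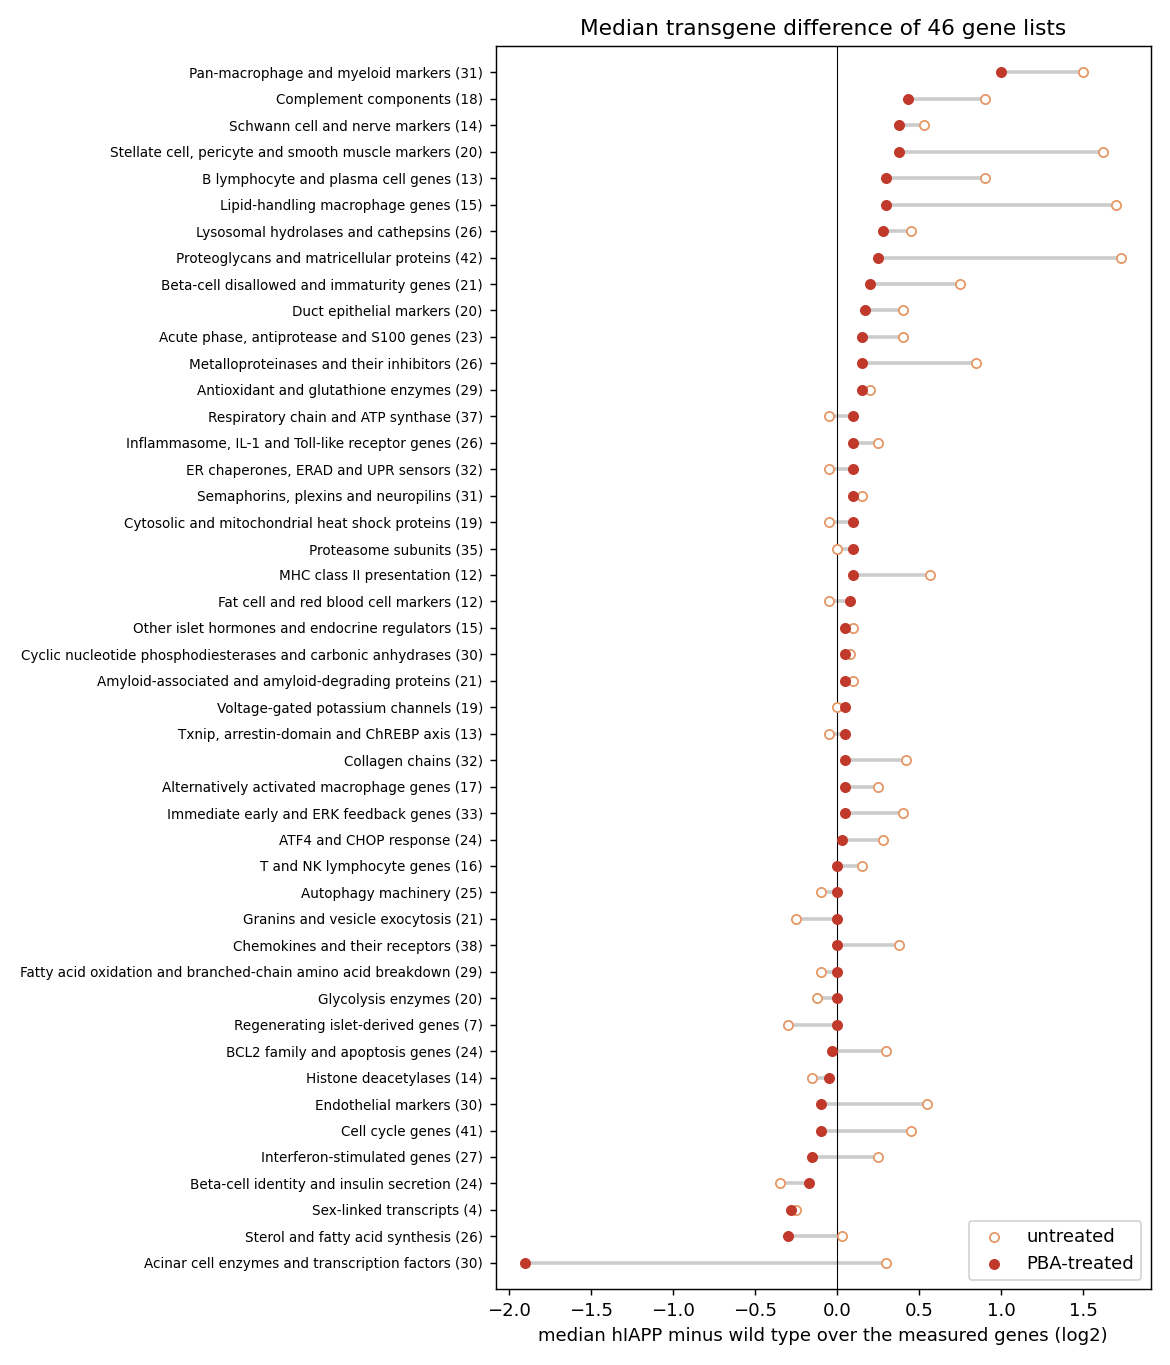
The median hIAPP minus wild-type difference of 46 gene lists (number of measured genes in parentheses), in log2 units, for PBA-treated islets (filled) and untreated islets (open). The macrophage list keeps the highest median under PBA, at 1.00, the stellate, lipid-handling macrophage and matrix lists move from above 1.6 to below 0.4, and the acinar list is lowest at -1.90.

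The sizes of the 72 differences were steadier than the number of calls. When the fit took in each array's acinar level, all 72 kept their sign, at 0.69 to 1.29 times their size, and 5 genes passed over all genes tested, Sema5a, Snhg18, Mpeg1 and Pla2g7 among the 72 and Reg2 outside them. Without replicate 1 of both PBA-treated groups the 72 differences were 0.78 to 1.27 times their size. Their sign could not turn when arrays were left out, since the arrays of the PBA-treated groups did not overlap for any of the 72. All calls left without 1 array were higher genes. Sema5a, Pla2g7, Snhg18 and Mpeg1 passed in all 8 fits of this kind, Crispld2 in 6, Lyz2, Cd68, Ms4a7 and Aldh1a3 in 4 and Acp5, Lcn2, Aass, Tyrobp and Apoe in 2, while 58 of the 72, all 17 lower genes among them, passed in none.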

How the data were processed

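Total RNA of isolated mouse islets was hybridised to 8 Affymetrix arrays. The deposited table holds log2 values that the authors made with RMA (affy package, per the submitters' processing notes, no version given), rounded to 1 decimal and used as deposited. RMA quantile-normalises the probe signals of all arrays, so a shift of the whole distribution cannot be read from them. Of 45037 non-control probe sets, 28898 name exactly 1 gene in the platform annotation, and the set with the highest mean stood for a gene, giving 17075 genes. Not analysed here were Iapp, Ins1 and Mafa. A single limma 3.58.1 fit (R 4.3.3) of 4 group means over all 8 arrays gave the contrasts, with two-sided tests and Benjamini-Hochberg adjustment over all genes. The fit was tested on simulated data. The number of arrays limits the precision.

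Named genes were, by rule, the 15 largest rises and falls under PBA, the 4 members of lowest p in each list, the 10 largest gaps between contrasts in each direction, 10 genes shared by the contrasts, those of opposite direction, and fixed islet and stress genes. The other genes of the 72, and Clec7a, Csf1r, Ptprc, Ccr2, C1qa and Gpnmb, were named after their values were seen. The members and the 46 lists were chosen with earlier results of these data known. Python 3.11.15, pandas 2.3.3 and matplotlib 3.10.9 served for tables and plots.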

Additional observations from a re-analysis of the deposited data

Results flagged for a closer look

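For 51 genes among the 72 and the other genes named by the selection rule or above, the transgene difference under PBA differed from that without PBA by a test of the gap itself (limma, adjusted p from 0.0035 to 0.0498 with all 8 arrays). Picking genes by a passing gap favours a gap that keeps its sign when 1 array is left out. All 51 kept the sign of the gap in the 8 fits that left out 1 array, and 2 of them, Arrdc4 and Iigp1, passed the threshold in any of those fits.

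Gaps below 0, a lower value under PBA, were found for 37 genes, Cytl1 (-3.55), Ces1d (-3.50), Smoc2 (-3.50), Arrdc4 (-3.05), Mmp12 (-3.05), Top2a (-2.95), Ube2c (-2.90), Pbk (-2.85), Ptger3 (-2.85), Cck (-2.70), Gpnmb (-2.50), Iigp1 (-2.45), Clec7a (-2.20), Rsad2 (-2.15), Aplnr (-2.05), Dusp4 (-1.90), Ckap2 (-1.80), Cpxm2 (-1.80), Col6a2 (-1.65), Hbb-b2 (-1.60), Txnip (-1.55), Il1r2 (-1.40), Pmaip1 (-1.40), Acta2 (-1.35), Adamts5 (-1.35), Sema3g (-1.35), Fabp4 (-1.30), Ddit4 (-1.25), Edil3 (-1.15), Mgp (-1.15), Ttc27 (-1.05), Casp4 (-1.0), Cd74 (-1.0), Pmp22 (-1.0), H2-Ab1 (-0.95), Bach2 (-0.80) and Stard4 (-0.75). In Iigp1 and Ckap2 the sign of the transgene difference turned past the threshold on both sides.

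Gaps above 0 were found for 14 genes, Crybb3 (2.90), Car15 (2.35), S100a8 (1.75), Pde10a (1.75), Kcnf1 (1.75), Fmo1 (1.65), Erich6 (1.65), Shisal2b (1.60), Actn3 (1.55), Atp4a (1.5), Lcn2 (1.40), Epb41l4a (1.15), Ttyh1 (0.85) and Mlx (0.80). Erich6 turned from lower to higher in hIAPP islets, past the threshold on both sides. With the acinar level as a covariate, Iigp1 (-2.40), Mmp12 (-3.39) and Arrdc4 (-2.81) still passed.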

How the results depend on the processing

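The count of 72 genes under PBA stayed within 1.5 times under 5 alternatives, at 78 to 107. It was 348 with a trended and robust variance prior, 38 with array weights, 5 with the acinar covariate, 5 to 13 without each array in turn, 1 without replicate 1 of both PBA-treated groups (1623 at an unadjusted p below 0.05) and 0 in a limma fit of the 4 PBA-treated arrays alone (1900 unadjusted). With the replicate number as a block, 15 passed. Over all genes, the deviations of same-numbered arrays from their group means had correlations of -0.14 to 0.098. Whether same-numbered arrays were processed together was not tested. The count of 335 gaps was 1058 with the trended prior, 531 after cyclic loess, 4 with the acinar covariate, 118 with the replicate block, 0 to 3 without each array and 0 without both of these arrays (2551 unadjusted). Without PBA, 1873 became 2820 over all probe sets, 3768 after median centring, 484 without both of these arrays and 567 to 1578 without each array. Fits with fewer arrays have fewer degrees of freedom, and for the other settings the cause was not tested. None of the 72 reversed in the alternatives that kept 1 probe set per gene, 71 of them being tested in that with only genes above background. In the alternatives that left out arrays none could, as the arrays of the PBA-treated groups did not overlap. Single genes were not compared in the alternatives with all probe sets or their mean. The rounding to 1 decimal and, for 14 of the 72 with a group near background, the dim signal limit the values.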
